A study of Mus musculus with 8 samples.

Results

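Transcript levels of the receptors that share the common beta chain, with Gfi1 and a few immune genes beside them, were compared between dorsal skin of mouse embryos without and with the glucocorticoid receptor (GR). The set held 10 genes, Csf2rb, Csf2rb2, Csf2ra, Il3ra, Il5ra, Gfi1, Gpr65, Gcsam, Ctla2a and Clec12b, out of 18193 measured genes. They were read at 13 of 45037 probe sets, each annotated to that gene alone, and the main value of a gene comes from its brightest probe set, by the average of all 8 arrays. The genes were chosen from a list made with the genotype differences of these arrays known, so their differences are given as a description and are not tested. The first group held 4 arrays of GR-/- embryos (GR-null, label numbers 5, 17, 25 and 26) and the second 4 arrays of GR+/+ embryos (wild-type, 4, 6, 28 and 29). All were B6D2/F1 littermates delivered by caesarean at embryonic day 18.5, and untreated as far as the labels say. The labels name neither the null allele nor the litter of an array. Nothing in the labels states that each array came from its own embryo, so the spread between arrays may be in part technical.

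Interleukin-3 (IL-3), interleukin-5 (IL-5) and granulocyte-macrophage colony-stimulating factor (GM-CSF) each bind an alpha chain of their own, encoded by Il3ra, Il5ra and Csf2ra. The bound alpha chain then pairs with the common beta chain encoded by Csf2rb, which carries the kinase Jak2 and activates the transcription factor Stat5. Mice have a further beta chain gene, Csf2rb2, whose product serves IL-3 alone. In skin these receptors are known from mast cells, macrophages and other myeloid cells, and Gfi1 encodes a zinc finger repressor of transcription that directs the development of blood cells.

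The deposited values are log2 expression values made by the authors with RMA (robust multi-array average), so a difference of 1 is a doubling. On the first principal component, which held 44.2% of the variance, GR-null 17 scored -7.96 while GR-null 5, 25 and 26 scored 25 to 61.3, and wild-type arrays scored -42.3 to -13.6. The mean of 28 skeletal muscle genes was 10.93 log2 in GR-null 17 and 10.04 to 10.32 in the other GR-null arrays, against 10.91 to 11.04 in wild-type arrays. Xist, transcribed from the inactive X chromosome, read 12.61 in GR-null 17 and 13.22 in wild-type 6, and 5.92 to 6.38 elsewhere. The Y-linked gene Eif2s3y read 3.31 and 3.43 in these arrays, and 8.83 to 9.51 elsewhere. Arrays of this female pattern thus numbered 1 in either genotype, and leaving out GR-null 17 also removes the only such GR-null array. Nr3c1, the gene of GR, was lower in GR-null arrays at 3 of its 6 probe sets, with differences, GR-null minus wild-type, of -2.70, -1.86 and -0.84 log2 (limma adjusted p = 0.00158, 0.000831 and 0.0133), and was 0.04 to 0.35 higher, not past the threshold, at the other 3.

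Promoter sequences are shown for 5 of the genes, chosen to hold both directions of difference: Csf2rb2, Gfi1, Gpr65 and Ctla2a, lower in GR-null skin, and Clec12b, higher. RefSeq (GRCm38.p6) held 11 start sites for 9 of the 10 genes, and the promoter sequences used had no entry for Csf2rb. Each line gives the 250 bases before a start site, 5′ to 3′ on the strand of the gene. Capitals mark matches on either strand. The letters searched were AGATAA for GATA factors, and also their variant TGATAA. For STAT factors they were TTCNNNGAA. ETS factors were searched with AGGAAG, and the core hexamer bound by GR was searched with AGAACA.
Csf2rb2, chr15:78305722-78305971, minus strand: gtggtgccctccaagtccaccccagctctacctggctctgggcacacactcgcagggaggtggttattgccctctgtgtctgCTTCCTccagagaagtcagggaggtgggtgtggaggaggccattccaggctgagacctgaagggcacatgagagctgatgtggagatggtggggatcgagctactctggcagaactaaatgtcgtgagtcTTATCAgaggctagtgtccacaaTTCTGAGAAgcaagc
Gfi1, chr5:107725806-107726055, minus strand: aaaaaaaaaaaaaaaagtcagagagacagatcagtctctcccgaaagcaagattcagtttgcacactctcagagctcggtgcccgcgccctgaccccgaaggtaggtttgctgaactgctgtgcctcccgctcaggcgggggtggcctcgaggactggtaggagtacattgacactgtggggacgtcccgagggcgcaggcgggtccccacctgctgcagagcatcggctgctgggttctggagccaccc
Gpr65, chr12:98268385-98268634, plus strand: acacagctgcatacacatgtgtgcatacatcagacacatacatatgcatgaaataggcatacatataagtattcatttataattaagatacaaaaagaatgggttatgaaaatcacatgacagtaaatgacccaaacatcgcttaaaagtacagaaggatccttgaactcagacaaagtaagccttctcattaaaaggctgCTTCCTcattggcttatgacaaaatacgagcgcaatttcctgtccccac
Ctla2a, chr13:60936626-60936875, minus strand: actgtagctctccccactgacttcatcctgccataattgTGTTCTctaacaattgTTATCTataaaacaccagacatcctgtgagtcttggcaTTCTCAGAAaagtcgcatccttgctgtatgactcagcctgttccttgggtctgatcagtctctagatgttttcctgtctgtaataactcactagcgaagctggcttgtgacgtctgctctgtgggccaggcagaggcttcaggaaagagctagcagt
Clec12b, chr6:129385504-129385753, minus strand: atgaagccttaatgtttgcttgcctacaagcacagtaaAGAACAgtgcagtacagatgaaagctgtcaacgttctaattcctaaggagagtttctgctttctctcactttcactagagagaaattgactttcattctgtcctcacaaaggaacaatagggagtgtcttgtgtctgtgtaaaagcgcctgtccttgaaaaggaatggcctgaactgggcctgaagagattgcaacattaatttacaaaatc
No matches overlap within a line, and the printed Gfi1 window, that of the outer of its 2 start sites, held no match. The window of the inner Gfi1 start, not printed, held an ETS match at 108 bases before it. Csf2rb2 held a GATA match starting 38 bases before its start site, a STAT match at 15 and an ETS match at 168. Ctla2a held a GR hexamer at 211, a GATA match at 195 and a STAT match at 157. Gpr65 held an ETS match at 49 and Clec12b a GR hexamer at 212. Over the 11 windows of these genes, including those not printed, GATA letters were found in 3, STAT letters in 3, ETS letters in 7 and the GR hexamer in 2, with the windows of neighbouring Ctla2a starts sharing bases. Both Ctla2a windows held the same STAT site, which is thus counted for each. Of 32851 windows of the same length, 16.6% held the GATA letters, 7.02% the STAT letters, 29.5% the ETS letters and 16.1% the GR hexamer. These matches describe the letters and say nothing of binding.

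The shared beta chains had larger differences than the alpha chains. Csf2rb, the signalling chain for all 3 cytokines, read 8.96, 9.52, 9.25 and 9.36 log2 in GR-null 5, 17, 25 and 26, against 10.86, 10.46, 10.98 and 11.41 in wild-type 4, 6, 28 and 29. Every GR-null array lay below every wild-type array, with 0.93 log2 between the nearest. The difference, GR-null minus wild-type, was -1.66 ± 0.20 log2 (SE, n = 4 per group), a level 3.15-fold lower. At its dimmer probe set Csf2rb read 6.47, 7.05, 7.10 and 7.10 in the GR-null arrays, against 8.17, 8.28, 8.48 and 8.93 in wild-type arrays, a difference of -1.53 ± 0.20. Both probe sets therefore gave the same direction with no overlap. In bulk skin, fewer cells of a type and less of the RNA in each cell cannot be told apart.

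Csf2rb2, the IL-3 beta chain of mice, had the largest difference of the 10 genes. It read 6.85, 7.45, 6.98 and 7.09 log2 in GR-null arrays (in the order 5, 17, 25 and 26, here and below), against 9.20, 8.56, 9.28 and 10.10 in wild-type arrays (4, 6, 28 and 29). The groups were 1.11 log2 apart at their nearest, and the difference was -2.19 ± 0.28 (SE), or 4.56-fold lower. Wild-type arrays spread more widely, with an SD of 0.63 against 0.26 in GR-null arrays, and wild-type 6 and 29 marked the ends of that spread. Csf2rb and Csf2rb2 lie on chromosome 15 with 1 gene between them, none of it protein-coding, and are close relatives in sequence. A further probe set is annotated to both and was left out by the rule. It read 7.44, 7.33, 7.65 and 7.71 in GR-null arrays, against 8.03, 7.70, 8.04 and 8.17 in wild-type arrays, a difference of -0.45 ± 0.12 with GR-null 26 above wild-type 6. How far the transcript of one gene enters the probe set values of the other was not tested.

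**Figure D1:**
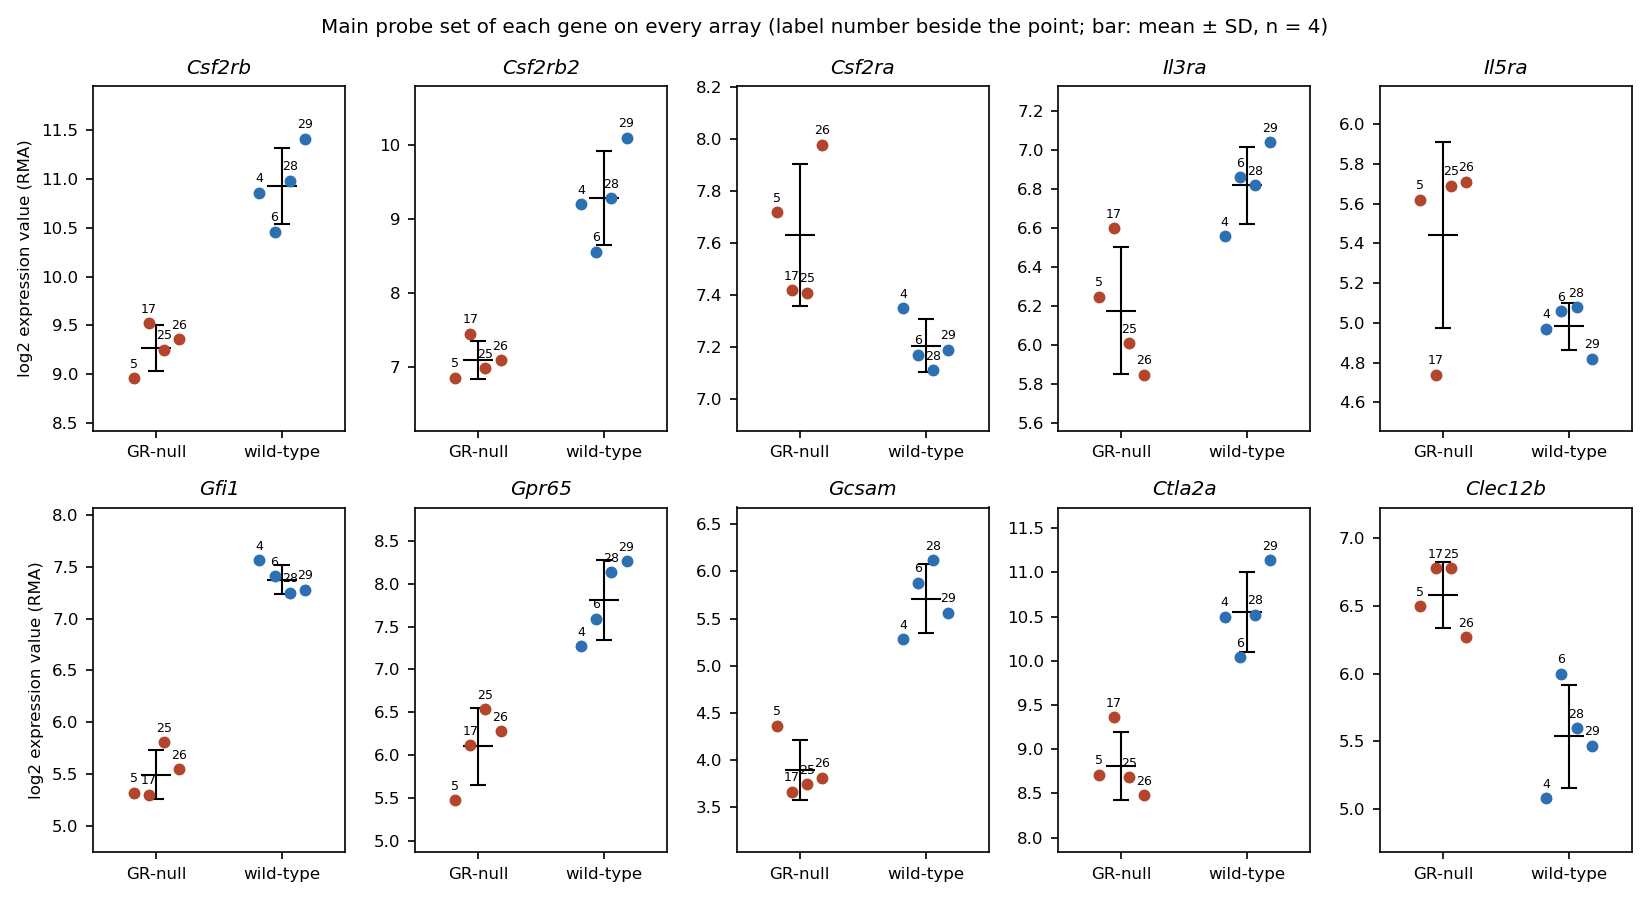
Log2 expression (RMA) at the main probe set of each of the 10 genes on every array, GR-null left and wild-type right. Points carry the label number of the array and bars give the mean ± SD (n = 4). Csf2rb, Csf2rb2, Gfi1, Gpr65, Gcsam and Ctla2a lie lower in every GR-null array, Clec12b and by 0.05 log2 also Csf2ra lie higher, and Il3ra and Il5ra overlap, with GR-null 17 beside the wild-type arrays.

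The ligand-specific alpha chains differed less than the beta chains and not in one direction. Il3ra, the IL-3 binding chain, read 6.25, 6.60, 6.01 and 5.85 log2 in GR-null arrays, against 6.56, 6.86, 6.82 and 7.04 in wild-type arrays. The groups overlapped by 0.04 log2, since GR-null 17 lay above wild-type 4, and the difference was -0.64 ± 0.17 (SE). Without GR-null 17 it was -0.78. With the mean of the skeletal muscle genes as a covariate it was -0.27. GR-null 17 was the GR-null array with the muscle level of wild-type arrays, and the part of muscle in the difference was not tested. In the other arrays the muscle mean followed genotype, so this fit separates muscle from genotype largely through GR-null 17.

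Il5ra, which binds IL-5, read 5.62, 4.74, 5.69 and 5.71 log2 in GR-null arrays, against 4.97, 5.06, 5.08 and 4.82 in wild-type arrays. GR-null 17 read lower than all wild-type arrays while the remaining GR-null arrays lay above them. The difference of 0.46 ± 0.21 (SE) became 0.69 when GR-null 17 was left out. The muscle covariate gave -0.20, so its direction depended on that term.

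Csf2ra, the GM-CSF binding chain, read 7.72, 7.42, 7.41 and 7.98 log2 in GR-null arrays, against 7.35, 7.17, 7.11 and 7.19 in wild-type arrays. The nearest arrays of the groups were 0.05 apart and the difference was 0.42 ± 0.13 (SE). Its dimmer probe set read 5.41, 5.40, 5.49 and 5.47 in GR-null arrays, against 5.56, 5.55, 5.66 and 5.54 in wild-type arrays. There the difference was -0.13 ± 0.07, so the probe sets of Csf2ra gave opposite directions.

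**Figure D2:**
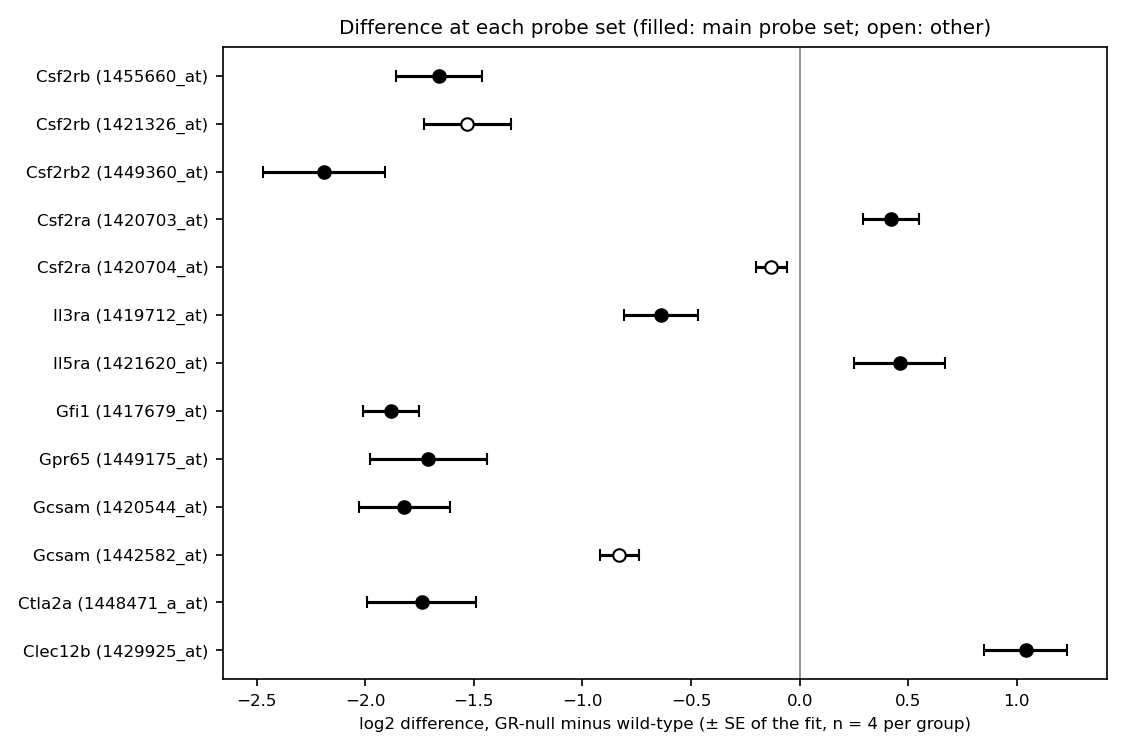
Log2 difference, GR-null minus wild-type, at each of the 13 probe sets, with the SE of the fit (n = 4 per group). Filled points are main probe sets and open points the others. Both Csf2rb and both Gcsam probe sets lie left of 0, whereas those of Csf2ra lie on either side.

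Gfi1 had the widest gap between the groups of the 10 genes. It read 5.32, 5.30, 5.81 and 5.55 log2 in GR-null arrays, against 7.56, 7.41, 7.25 and 7.28 in wild-type arrays. The arrays nearest to each other, GR-null 25 and wild-type 28, were 1.44 log2 apart, and arrays of 1 genotype lay closer together than that. Gfi1 was 3.69-fold lower (-1.88 ± 0.13 log2, SE). The difference was -1.82 when GR-null 17 was left out, and -2.0 under the muscle covariate. Its paralogue Gfi1b, named after its values were seen, is a repressor of transcription in the erythroid and megakaryocyte lineages. Gfi1b averaged 5.54 ± 0.15 in GR-null and 5.62 ± 0.11 in wild-type arrays (SD, n = 4), with a difference of -0.08 ± 0.10 (SE, limma adjusted p = 0.69).

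Gpr65, a G protein-coupled receptor that senses extracellular protons, read 5.48, 6.12, 6.54 and 6.28 log2 in GR-null arrays, against 7.27, 7.59, 8.13 and 8.26 in wild-type arrays. Its level was 3.26-fold lower (-1.71 ± 0.27, SE), with 0.72 between the nearest arrays. GR-null 5 and wild-type 4 were the lowest arrays of their genotypes.

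Gcsam, a signalling adaptor first known from germinal centre B cells, read 4.36, 3.66, 3.74 and 3.81 log2 in GR-null arrays, against 5.28, 5.88, 6.12 and 5.56 in wild-type arrays. The difference was -1.82 ± 0.21 (SE), with the groups 0.92 apart. A dimmer probe set read 3.75 to 3.88 in GR-null arrays, against 4.44 to 4.73 in wild-type arrays, a difference of -0.83 ± 0.09. Both gave the lower level in GR-null skin, and both read near the dim end of the array.

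Ctla2a, an inhibitor of cathepsin-type cysteine proteases, read 8.71, 9.36, 8.68 and 8.48 log2 in GR-null arrays, against 10.50, 10.04, 10.52 and 11.14 in wild-type arrays. It was 3.35-fold lower (-1.74 ± 0.25, SE), and the muscle covariate brought this to -1.16. GR-null 17 was the highest of its group and wild-type 6 the lowest of its own. Ctla2b, a near relative on the same chromosome, read 7.82, 8.14, 7.85 and 7.53 in GR-null arrays, against 8.99, 8.63, 8.92 and 9.37 in wild-type arrays. Ctla2b fell by 1.14 ± 0.17 log2 (limma adjusted p = 0.0161), a call lost without GR-null 25 (adjusted p = 0.0598) and with the muscle covariate (-0.81, adjusted p = 0.258). A probe set annotated to both Ctla2 genes was lower too, with a difference of -1.44 ± 0.21 (SE). As for the beta chains, probes may take up the transcript of the relative, which was not tested.

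Clec12b, an inhibitory C-type lectin-like receptor, ran the other way. It read 6.5, 6.78, 6.78 and 6.27 log2 in GR-null arrays, against 5.08, 6.0, 5.60 and 5.47 in wild-type arrays. Every GR-null array was above every wild-type array, with 0.28 between the nearest, and the difference was 1.04 ± 0.19 (SE), or 2.06-fold higher.

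By the fit over all genes, 7 of the 10 were past an adjusted p of 0.05, 6 of them lower and 1 higher in GR-null skin, beside 2.96% of all genes (1.56% lower and 1.40% higher). GR-null and wild-type values stayed apart for 8 of the 10, beside 13.0% of all genes. At the probe set level 9 of the 13 were past the threshold, beside 3.85% of all probe sets. These counts follow from how the genes were chosen and nothing is read from them. The median difference of the 10 was -1.68 log2, and over all genes it was -0.0045. Csf2rb, Csf2rb2, Gfi1 and Gcsam were past the threshold in all 8 fits without 1 array, Ctla2a in 7, Gpr65 in 6, Clec12b in 4, Il3ra and Il5ra in 1 and Csf2ra in 0.

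Variation among arrays of 1 genotype was examined with each array's deviation from its genotype mean. The genes were chosen with the genotype differences known, and whether the spread within a genotype entered that choice is not known. Csf2rb and Csf2rb2 deviated together: in GR-null 5, 17, 25 and 26 Csf2rb stood at -0.31, 0.25, -0.03 and 0.09 log2 from its mean and Csf2rb2 at -0.24, 0.36, -0.11 and -0.00. In wild-type 4, 6, 28 and 29 Csf2rb stood at -0.07, -0.47, 0.05 and 0.48 and Csf2rb2 at -0.08, -0.73, -0.01 and 0.82. Pearson's r over the 8 arrays was 0.97 (exact permutation p = 0.00521) and Spearman's rho 0.98 (exact permutation p = 0.00347). The adjusted values over all 45 pairs were 0.195 and 0.156, and without wild-type 6 and 29 r was 0.91. The same measure between the 2 probe sets of Csf2rb itself was 0.82.

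Ctla2a followed Csf2rb2 with r = 0.90 and rho = 0.74 (exact permutation p = 0.0191 and 0.066, adjusted 0.234 and 0.586), and r was 0.80 without wild-type 6 and 29. Il3ra and Il5ra ran opposite to each other with r = -0.80 and rho = -0.69 (exact p = 0.0365 and 0.059, adjusted 0.268 and 0.586). That relation rested on GR-null 17 and 26, without which r was -0.40. Csf2ra and Clec12b also ran opposite, with r = -0.73 and rho = -0.83 (exact p = 0.00868 and 0.0278, adjusted 0.195 and 0.586), and r was -0.68 without GR-null 25 and 26. For Gfi1 no relation to the beta chains was found, with r of -0.21 to Csf2rb and -0.32 to Csf2rb2 (exact p = 0.587 and 0.378, adjusted 0.867 and 0.774), and rho of -0.24 and -0.26 (exact p = 0.578 and 0.531, adjusted 0.926 and 0.925).

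Of the 45 pairs, 19 had a positive r and the median r was -0.12. By the two-sided exact permutation test, which reorders arrays within each genotype, 0 pairs passed an adjusted p of 0.05 by either coefficient, and 7 had an unadjusted p below 0.05 for r. There are 576 such reorderings, so the smallest p they can give is 0.00174, and a single pair cannot pass after adjustment over 45.

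**Figure D3:**
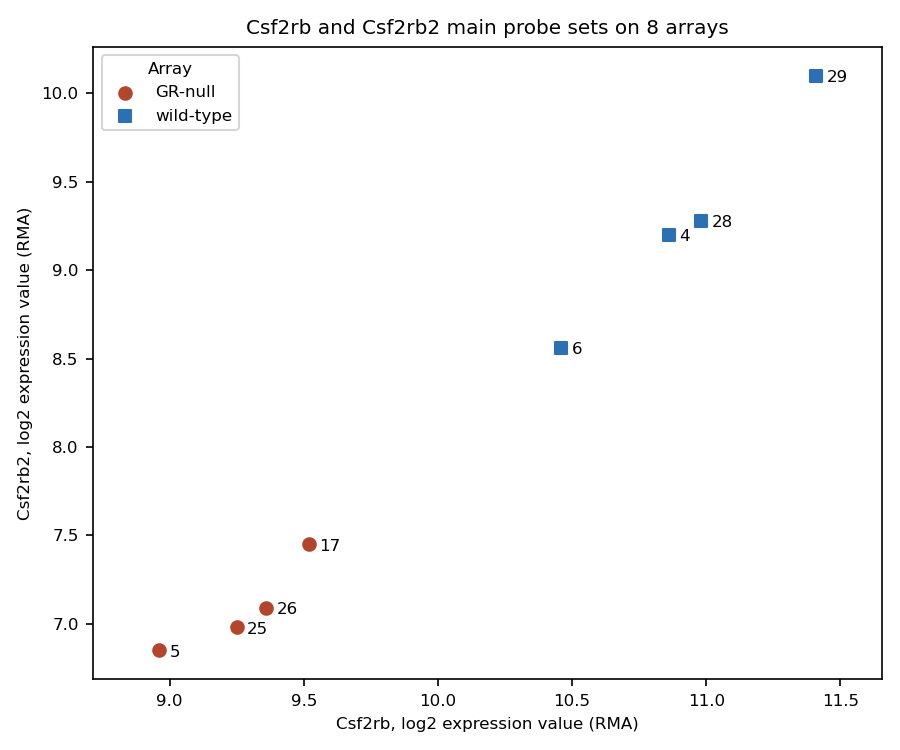
Log2 expression (RMA) of Csf2rb (x axis) against Csf2rb2 (y axis), main probe sets, with 1 point per array and its label number, GR-null as circles and wild-type as squares. Within each genotype the arrays take the same order on both axes, from GR-null 5 up to GR-null 17 and from wild-type 6 up to wild-type 29.

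**Figure D4:**
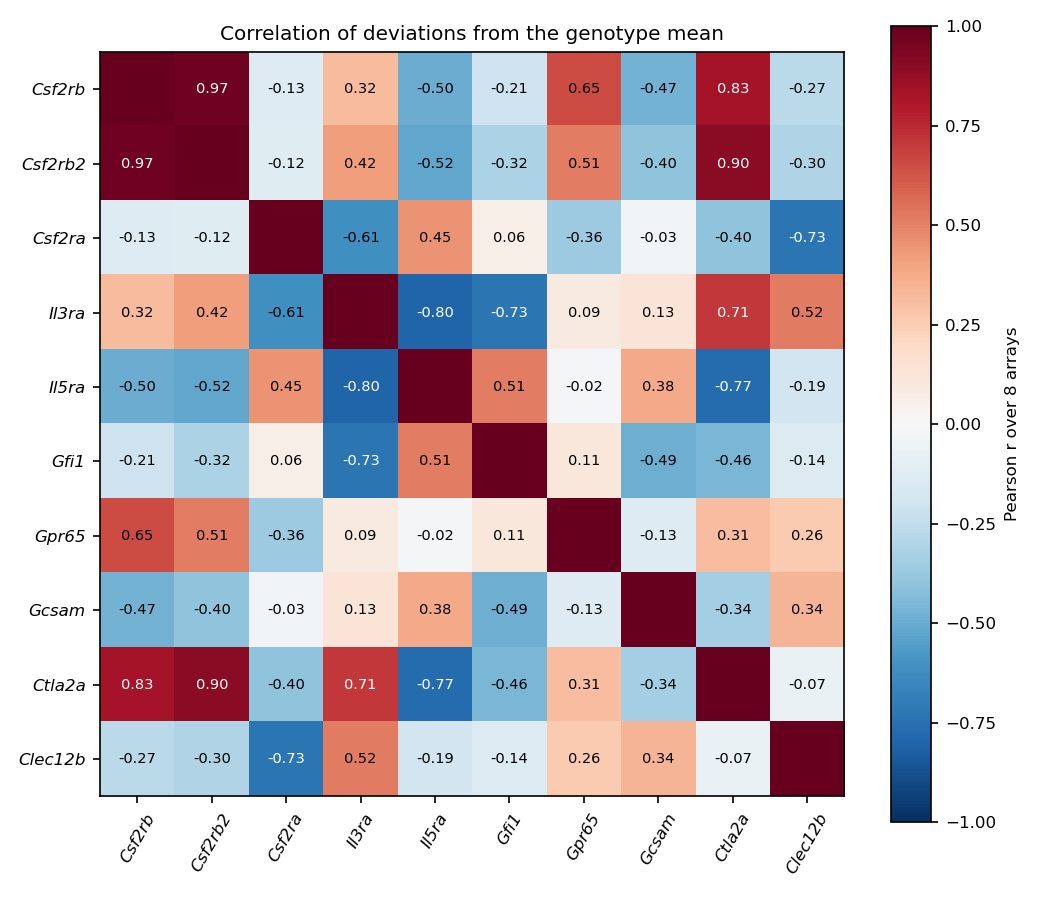
Pearson r, over 8 arrays, between the deviations of each pair of genes from their genotype means. Csf2rb, Csf2rb2 and Ctla2a form the pairs with r of 0.83 to 0.97, and Il3ra with Il5ra has r of -0.80.

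Leaving out the 10 genes themselves, the genes most like Csf2rb by the same measure were Fdx1 (r = 0.974), Smad7 (0.970), Zfp775 (0.957), Rb1 (0.955), L3mbtl3 (0.952) and Dclre1a (0.950), over 8 arrays and 6823 genes searched. None of the 6 differed between the genotypes past the threshold in limma, and their adjusted p lay between 0.296 and 0.962. In that search 2 genes had an r at least as high as that of Csf2rb2, and 115 one at least as high as that of Ctla2a.

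The rest of the pathway was read from lists of genes other than the 10. Transcripts of the ligands were dim in both genotypes, and all 3 are given. Il3 averaged 3.96 ± 0.13 log2 in GR-null and 4.07 ± 0.17 in wild-type arrays (SD, n = 4 each), Il5 4.35 ± 0.15 and 4.31 ± 0.07, and Csf2, which encodes GM-CSF, 5.80 ± 0.24 and 5.71 ± 0.21. By limma 0 of the 3 passed the threshold (adjusted p = 0.633, 0.873 and 0.777), and 0 had an unadjusted p below 0.05.

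Downstream of the receptors, Socs2, a feedback inhibitor induced by Stat5, read 7.80, 8.36, 8.27 and 7.81 log2 in GR-null arrays, against 9.39, 8.92, 8.96 and 9.40 in wild-type arrays. Socs2 fell by 1.10 ± 0.17 log2 (SE, 2.15-fold, limma adjusted p = 0.0176) and lower values were found in 4 of 4 GR-null arrays. The call was lost without GR-null 25 (0.052), GR-null 26 (0.0512) or wild-type 29 (0.0599), and with the muscle covariate the difference was -0.73 (adjusted p = 0.286). The kinase gene Jak1 rose by 0.44 ± 0.10 (adjusted p = 0.0489) and kept its call in 1 of the 8 fits without 1 array, that without GR-null 17, with adjusted p of 0.0771 to 0.151 in the others, 0.448 with the muscle covariate, 0.0576 after a further quantile normalization and 0.0517 with another variance prior. The other 23 of 25 measured signalling genes missed the threshold, among them Jak2 with a difference of 0.00 ± 0.10, Stat5a with -0.11 ± 0.12, Stat5b with 0.12 ± 0.13 and the Stat5 target Cish with -0.33 ± 0.11 (adjusted p = 0.99, 0.646, 0.689 and 0.141). The 4 were named after their values were seen. At an unadjusted limma p below 0.05, 1 of the 25 was higher and 6 lower, beside 3936 of all 18193 genes in either direction. The groups did not overlap for 5, beside 13.0% of all genes. Among the lower were Pik3r1 (-0.32 ± 0.08) and Bcl2l1 (-0.29 ± 0.08), with limma adjusted p of 0.0742 and 0.0907. Both were named after their values were seen.

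Among 24 other cytokine receptor genes, 2 rose and 0 fell. Il13ra1, a chain of receptors for interleukin-4 and interleukin-13, rose by 0.85 ± 0.16 log2 (limma adjusted p = 0.0344), and Ghr, the growth hormone receptor, rose by 0.47 ± 0.10 (adjusted p = 0.0433). Il13ra1 kept its call only without GR-null 17 or wild-type 6 and Ghr only without GR-null 17 or wild-type 4, with adjusted p of 0.0659 to 0.109 and 0.0752 to 0.131 in the other fits without 1 array. After a further quantile normalization the adjusted p of Ghr was 0.0585. With the muscle covariate Il13ra1 stood at 0.55 (adjusted p = 0.426) and Ghr at 0.49 (0.318), and both calls were lost. At an unadjusted p below 0.05, 3 of these receptors were higher and 3 lower, beside 3936 of all 18193 genes in either direction.

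Of 21 haematopoietic transcription factors, limma called 0. At an unadjusted p below 0.05, 3 were higher and 1 lower, beside the 3936 of all 18193 genes. The smallest p were those of Egr2, a zinc finger factor, at 0.63 ± 0.19 log2 (adjusted p = 0.10) and Cebpa, at 0.39 ± 0.13 (adjusted p = 0.124). Of 8 relatives of Gpr65, Ctla2a and Clec12b, Ctla2b fell and 7 were not past the threshold. Over the 5 lists, 3 of 81 genes rose and 2 fell, and 76 missed it, which is 6.17% called beside 2.96% of all genes, with a median difference of 0.02.

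Markers of the cells that carry these receptors were read beside them. The mast cell proteases Cpa3 and Cma1, chosen after their values were seen as defining markers of that cell, averaged 13.33 ± 0.20 and 13.46 ± 0.15 log2 in GR-null arrays (SD, n = 4), against 13.34 ± 0.12 and 13.22 ± 0.14 in wild-type arrays. Kit, the receptor for stem cell factor, named in the same way, averaged 9.91 ± 0.21 in GR-null and 9.90 ± 0.06 in wild-type arrays. These defining markers were bright in both genotypes and differed by -0.00 ± 0.11, 0.24 ± 0.10 and 0.02 ± 0.11 log2 (SE, limma adjusted p = 0.996, 0.226 and 0.957). The mean of all 20 measured mast cell genes ranged from 8.09 to 8.56 in GR-null and from 8.26 to 8.67 in wild-type arrays. At an unadjusted limma p below 0.05, 3 of the 20 were higher and 5 lower, beside 3936 of all 18193 genes in either direction. The groups did not overlap for 7, beside 13.0% of all genes. Among the lower were Fcer1a (-0.49 ± 0.14, dim) and Srgn (-0.45 ± 0.13), with adjusted p of 0.0949 and 0.0863. Both were named after their values were seen.

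Within that list 3 of 20 genes fell and 1 rose. Mrgprb1, a Mas-related G protein-coupled receptor, fell by 3.47 ± 0.18 log2 (limma adjusted p = 0.000189) and kept its call in all 8 fits without 1 array. Hdc, the enzyme that makes histamine, fell by 1.41 ± 0.22 (adjusted p = 0.0167), a call lost without wild-type 28 (0.0516) or wild-type 29 (0.0598), and with the muscle covariate (-1.77, adjusted p = 0.0667). The tryptase Tpsab1 fell by 0.82 ± 0.15 (adjusted p = 0.0308) and the prostaglandin D synthase Hpgds rose by 0.79 ± 0.15 (adjusted p = 0.0314). Tpsab1 kept its call only without GR-null 17 or GR-null 26, with adjusted p of 0.0511 to 0.106 in the other fits without 1 array. Hpgds kept its call only without GR-null 17, with 0.0505 to 0.106 in the others. The muscle covariate ended both calls, with Tpsab1 at -1.02 (adjusted p = 0.162) and Hpgds at 0.43 (0.418), while Mrgprb1 stood at -2.99 (0.0052). For Tpsab1 and Hdc the call was lost although the difference was larger. Muscle and genotype are largely confounded in that fit.

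Macrophage genes ranged in their mean from 7.64 to 8.13 log2 in GR-null arrays, against 7.76 to 8.29 in wild-type arrays. Cd163, the scavenger receptor for haemoglobin, fell by 2.13 ± 0.29 (limma adjusted p = 0.0112), and the other 13 of 14 were not past the threshold. At an unadjusted limma p below 0.05, 4 macrophage genes were higher and 1, Cd163, lower, beside 3936 of all 18193 genes in either direction. The Cd163 call held in all 8 fits without 1 array and was lost with the muscle covariate (-1.29, adjusted p = 0.133). Of 14 pan-leukocyte genes 1 rose, the tetraspanin Cd53 by 0.47 ± 0.09 (adjusted p = 0.0303, kept only without GR-null 17 or wild-type 6 among the fits without 1 array and lost with the muscle covariate, adjusted p = 0.269), and the list mean was 8.09 to 8.31 in GR-null and 7.95 to 8.42 in wild-type arrays. At an unadjusted limma p below 0.05, 2 of the 14 pan-leukocyte genes were higher and 1 lower, again beside 3936 of all 18193 genes. The lower one, Laptm5, had the largest difference of the list, -0.94 ± 0.24 (SE, adjusted p = 0.0655), with no overlap of the groups. Ptprc (CD45), found on all leukocytes, averaged 8.80 ± 0.25 in GR-null and 8.72 ± 0.22 in wild-type arrays. Laptm5 and Ptprc were named after their values were seen.

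Eosinophils, which carry the IL-5 receptor, left little signal in either genotype. Their granule genes Epx and Prg2, the second named after its values were seen, averaged 4.14 ± 0.08 and 4.23 ± 0.08 log2 in GR-null arrays, against 4.31 ± 0.03 and 4.18 ± 0.09 in wild-type arrays, near the dim end of the scale. The smallest p of the eosinophil list were those of Epx (limma adjusted p = 0.194) and Alox15, which differed by 0.19 ± 0.12. By limma 0 of 7 eosinophil, 0 of 2 basophil, 0 of 12 neutrophil, 0 of 8 dendritic and Langerhans cell, 0 of 11 lymphocyte, 0 of 4 B cell and 0 of 8 endothelial genes were past the threshold. At an unadjusted p below 0.05 these 7 lists held 1, 0, 2, 2, 2, 0 and 3 genes, beside 3936 of all 18193 genes. The smallest p in each list belonged to Mcpt8 (-0.21 ± 0.12 log2, SE) and Cd200r3 (0.14 ± 0.15) in basophils, Prtn3 (0.31 ± 0.09) and Mmp8 (-0.31 ± 0.11) in neutrophils, and Cd74 (0.64 ± 0.21) and Zbtb46 (-0.46 ± 0.16) in dendritic cells. They belonged to Cd3e (-0.36 ± 0.12) and Gata3 (0.51 ± 0.19) in lymphocytes, Cd79a (-0.14 ± 0.10) and Cd79b (-0.12 ± 0.10) in B cells, and the angiopoietin receptor Tek (-0.69 ± 0.23) and Tie1 (-0.37 ± 0.13) in endothelium, with adjusted p of 0.103 to 0.667 over these 12 genes. The endothelial list mean was 8.42 to 8.48 in GR-null and 8.33 to 8.85 in wild-type arrays.

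The skeletal muscle list was lower in most GR-null arrays, as given above, with 4 of 28 genes lower past the threshold, 0 higher and a median difference of -0.56 log2. The 4 were Mybpc1 (-0.92 ± 0.17, SE), Actn2 (-0.75 ± 0.15), Tnnt1 (-0.67 ± 0.10) and Myh3 (-0.55 ± 0.09), with limma adjusted p of 0.0167 to 0.0395. Their calls were lost in 7, 7, 3 and 5 of the 8 fits without 1 array, and all 4 with the list mean as a covariate. Each of the 4 is part of that mean, so the loss with the covariate was largely fixed in advance. With the list mean as a covariate, Csf2rb stood at -1.28 log2, Csf2rb2 at -1.70, Gpr65 at -1.40, Gcsam at -2.15 and Clec12b at 1.26, in the same direction as without it. Il5ra changed direction, as given above, with 0.46 without the covariate and -0.20 with it. Whether the calls of the 10 genes held under the covariate is not given here. Calls over all genes went from 539 to 95 with it. Of 10 keratinocyte genes, the epidermal regulator Trp63 rose by 0.60 ± 0.12 (adjusted p = 0.0372), the cornified envelope gene Lor fell by 0.48 ± 0.10 (adjusted p = 0.0379) and 8 were not past the threshold. Both calls were lost in 6 of the 8 fits without 1 array and with the muscle covariate (Trp63 0.63, adjusted p = 0.287, and Lor -0.55, adjusted p = 0.237). The list ran from 12.72 to 12.98 log2 in GR-null and from 12.70 to 13.16 in wild-type arrays, so the defining markers of skin epidermis were bright on every array.

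**Figure D5:**
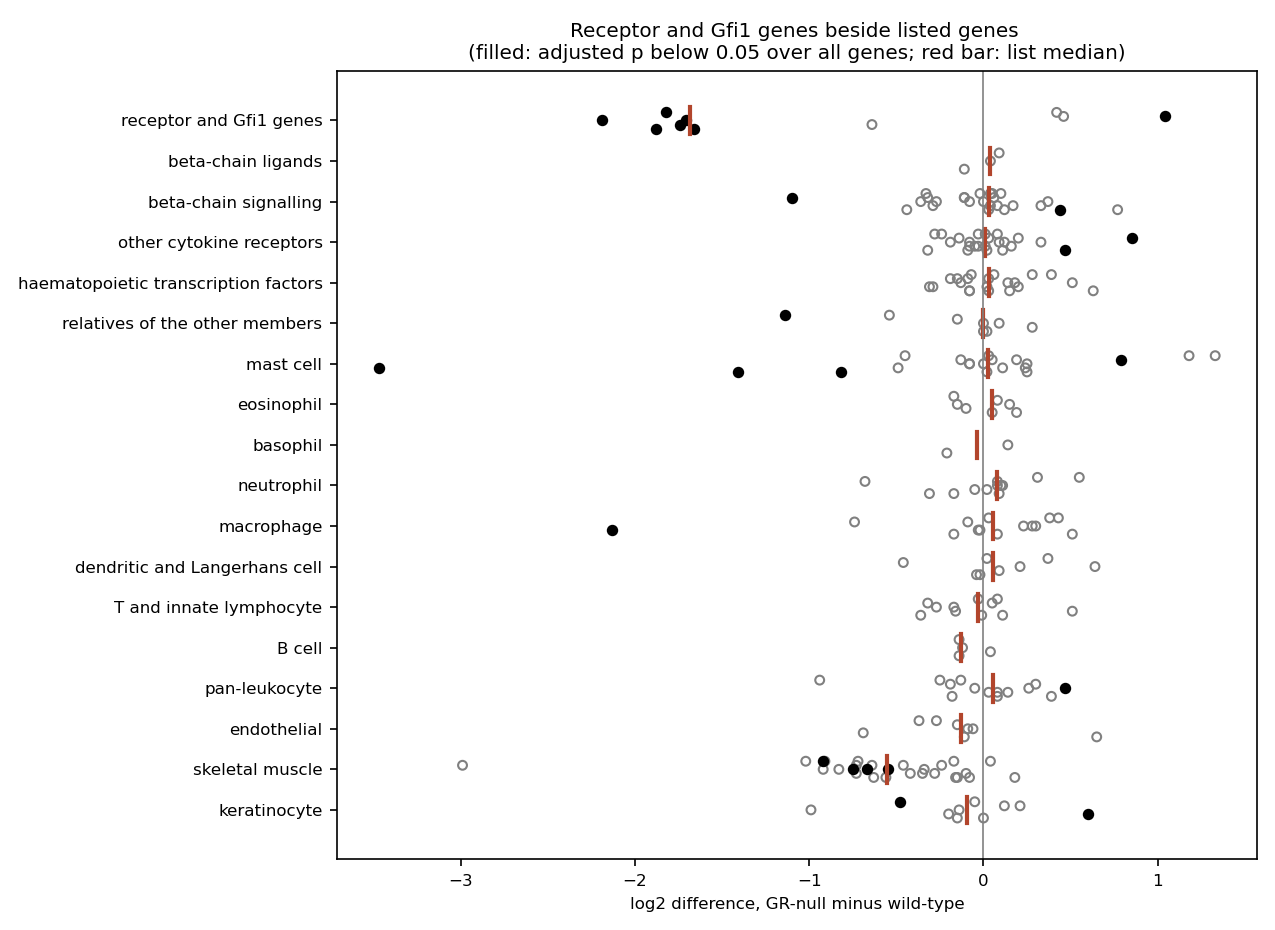
Log2 difference, GR-null minus wild-type, of the 10 genes (top row) and of each gene in the 17 lists. Filled points have a limma adjusted p below 0.05 over all genes and red bars give medians. The median lies at -1.68 for the 10 genes chosen with these differences known, at -0.56 for skeletal muscle and between -0.13 and 0.08 for the other lists.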

How the data were processed

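Affymetrix mouse expression arrays (single-colour, biotin-labelled) measured RNA from dorsal skin of GR-null and wild-type embryos on 4 arrays each. The authors deposited log2 expression values, computed with RMA for each probe set, per the submitters' processing notes. Version, probe set definition and genome build: not given in the sources used here. Because this method equalises array distributions, a shift of most transcripts could not be seen. The number of arrays limits the precision. The table held 45101 probe sets. After 64 control probe sets were left out, 45037 were tested, of which 34945 carried 1 gene symbol, 932 several and 9160 none listed in the platform annotation.

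Limma 3.58.1 in R 4.3.3 fitted genotype as the single term to each probe set (lmFit, eBayes, two-sided), with Benjamini-Hochberg adjustment over 18193 genes or over all probe sets and a threshold of 0.05. The fit was tested on simulated data. Replicate numbers are not shared between the genotypes. Correlations used genotype-centred values and exact permutation within genotype (SciPy 1.17.1). Likeness to Csf2rb was searched among genes with a mean of at least 5 log2 and an SD of at least 0.15. Named were all 10 genes, in each of 17 lists up to 4 genes past the threshold with the largest change or else the 1 or 2 with the smallest p, and the 6 genes outside the 10 most like Csf2rb. Il5, Jak2, Stat5a, Stat5b, Cish, Pik3r1, Bcl2l1, Gfi1b, Cpa3, Cma1, Kit, Fcer1a, Srgn, Laptm5, Ptprc and Prg2 fell outside this rule and were named after their values were seen. The 10 genes and the lists were chosen with earlier results of these data known. Other settings were a further quantile normalization, leaving out each array, a muscle covariate, a filter on dim genes, another variance prior and the mean of all probe sets. Genes without a probe set of their own in the annotation were not used here.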

Additional observations from a re-analysis of the deposited data

Results flagged for a closer look

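In 3 of 26 groups of 4 arrays, 1 group for each genotype at each of the 13 probe sets, 1 array stood far from the other 3 by Dixon's test, which chance alone would do in about 1 group in 20. At the dimmer Csf2rb probe set, GR-null 5 read 6.47 log2 while the other GR-null arrays read 7.05 to 7.10. At the Il5ra probe set, GR-null 17 read 4.74 while the other GR-null arrays read 5.62 to 5.71. At the dimmer Csf2ra probe set, wild-type 28 read 5.66 while the other wild-type arrays read 5.54 to 5.56.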

How the results depend on the processing

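Over all genes, limma called 539. The count was 95 with the mean of the skeletal muscle genes as a covariate, 884 when probe sets were averaged within genes, and from 79 (without GR-null 25) to 1640 (without GR-null 17) without 1 array. Over probe sets it was 1735, and 125 to 4866 without 1 array. Of the 81 genes in the pathway lists 5 were called, 3 after a further quantile normalization, 0 with the muscle covariate (12 at an unadjusted p below 0.05) and 0 to 6 without 1 array, the 0 being without GR-null 25 (13 at an unadjusted p below 0.05). Of the 17 called genes over all 17 lists, 16 lost the call with the muscle covariate and 1, Mrgprb1, kept it. Among the 16 are the muscle genes Mybpc1, Actn2, Tnnt1 and Myh3, which are part of that mean. These settings change the samples, the terms or the values tested, and the cause of each shift was not tested. Apart from GR-null 17, the muscle mean followed genotype. With it calls were also lost where the difference did not shrink, as for Cd53 (0.47 with and without it). Of the 10 receptor and Gfi1 genes, 7 were lower in GR-null arrays in the fit with all arrays. The differences of the 10 genes stayed within 1 SD of the replicates in 103 of the results by setting and moved further in 10. Most of the 103 were fixed in advance and say nothing of stability. With groups of this size, leaving out 1 array always shifts a difference by less than 1 SD, whatever the values. Averaging probe sets cannot change a gene read at only 1 probe set. The larger shifts were those of Csf2rb, Csf2rb2, Csf2ra (0.18), Il3ra, Il5ra and Ctla2a under the muscle covariate, where Il5ra stood at -0.20 against 0.46 without it, of Csf2ra (0.15) and Gcsam (-1.32) after that averaging, and of both at their dimmer probe set (-0.13 and -0.83). No paired analysis was possible because the labels do not name the litter of an array and the genotypes share no label numbers. Litter was therefore not part of the fit. The array count and the dim signal of Gcsam, Il5ra and the ligands limit what could be seen.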
